A study of Mus musculus with 7 samples.

Results

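The T cell receptor signalling genes were followed in splenic Tregs of aged and young mice, as a list of 38 genes chosen by symbol for their place in the pathway, from the CD3 chains to the NFAT factors and the enzymes that switch the receptor off. All 38 genes were found in the deposited table, and all passed the filter on low counts, within 13904 genes tested in the whole series. The values came from CD4+CD25+ splenocytes of wild-type mice isolated with magnetic beads, in 3 libraries from 18-month-old (aged) and 4 libraries from 8-week-old (young) animals, each labelled as a biological replicate. The mice were male C57BL/6, and the age of young mice differs between the labels, used here, and the methods. No mouse in these libraries is labelled with surgery or any other treatment. The beads enrich for cells with CD4 and CD25 on their surface, so that activated conventional T cells with CD25 and other splenocytes could be among them. The labels do not say whether a library came from 1 mouse or from a pool.

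The T cell receptor has no enzyme of its own. When it binds peptide on MHC, the kinase Lck phosphorylates the CD3 and zeta chains, Zap70 docks on them and phosphorylates the adaptors Lat and Lcp2 (SLP-76), and phospholipase Plcg1 then makes the calcium signal that activates NFAT and the diacylglycerol that recruits Rasgrp1 and Prkcq to the Ras and NF-kappa B branches. Csk, phosphatases, diacylglycerol kinases and ubiquitin ligases hold this signal in check. In Tregs, signals through this receptor are needed for thymic selection and for suppressive function.

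Gene counts per library ran from 10734234 to 13649310, with the aged libraries the 3 shallowest. Every member was well covered, with between 249 reads (the lowest count of the adaptor Nck1) and 25827 reads (the highest count of Ptprc) in a library. Levels are given as CPM, the reads of a gene relative to the reads on all tested genes of its library, on the TMM scale. Log2 fold changes, aged against young, come from edgeR's quasi-likelihood test with standard errors (SE) and p-values adjusted by Benjamini-Hochberg over all 13904 genes. A gene was called with an adjusted p under 0.05. Foxp3, the Treg lineage factor, was at 447 to 622 CPM in aged and 394 to 518 CPM in young libraries. The summed level of 10 Treg markers was 3268 to 3692 CPM in aged and 2362 to 3796 CPM in young libraries, with the highest sum in young replicate 2. That of 10 B cell markers was 1130 to 2095 CPM in aged and 1675 to 2561 CPM in young libraries. Neutrophil markers were at 5706, 2039 and 749 CPM in aged replicates 1, 2 and 3, against 287 to 1005 CPM in young libraries. All 8 naive T cell markers were lower, with sums of 1150 to 1445 CPM in aged and 2332 to 2702 CPM in young libraries, and 5 of 8 effector memory markers were higher. Mitochondrial genes took 5.08 to 10.7% of the gene reads in aged and 2.63 to 3.23% in young libraries, and with these, immunoglobulin and haemoglobin genes left out, 12 members (31.6%, against 17.5% of all genes in that fit) were called, among them the 10 of the reported fit. The part of these cells and reads in the members' changes was not tested beyond the fits given here. In such bulk samples, fewer cells of a type and less RNA per cell cannot be told apart.

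Of the 38 members, 10 were called (26.3%), against 16.7% of all genes tested and 16.4% of the 5971 genes at or above the level of the lowest member. The members were chosen with earlier results of these data known, so these shares are a description and no test. The Ras exchange factor Rasgrp1, the Tec family kinase Txk and the inhibitory kinase Csk fell furthest for their error, Prkcq, Ptpn6, Cd5 and Dgkz fell by less, and Cd3e, Malt1 and Ptpn22 rose. That is 7 lower (18.4%, against 6.94% of all genes) and 3 higher (7.89%, against 9.8% of all genes). The largest change was smaller than 1 on the log2 scale in either direction, and the median log2 fold change was -0.10 over the members and 0.02 over all genes. Aged and young libraries did not overlap in 15 members (39.5%, against 29.9% of all genes), of which 10 were lower and 5 higher in aged Tregs. The share of all genes was not split by direction, so this split has nothing to be read against. Only Rasgrp1, Txk and Csk were called in each of the 7 fits that left out 1 library. Without aged replicate 3, and likewise without young replicate 1, 3 or 4, those 3 were the only calls among the members (7.89%). Of all genes, 8.9% to 9.58% were called in these 4 fits in either direction. All 3 member calls were falls, and 448 to 486 of 13684 to 14183 genes tested were called lower there. Prkcq, Dgkz and Cd5 were called only without aged replicate 1 in these fits, Malt1 and Ptpn6 only without aged replicate 2, Cd3e without aged replicate 1 or young replicate 2, and Ptpn22 without aged replicate 2 or young replicate 2. Scaled by library size alone, 7 members were called, 7 lower and 0 higher, and 1835 of all genes (13.2%), 875 lower and 960 higher. Of these 7 members, 5 were called in the reported fit as well. Cd3e, Malt1, Dgkz, Ptpn22 and Cd5 were no longer called there, and Bcl10 and Grap2 were called in addition.

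**Figure D1:**
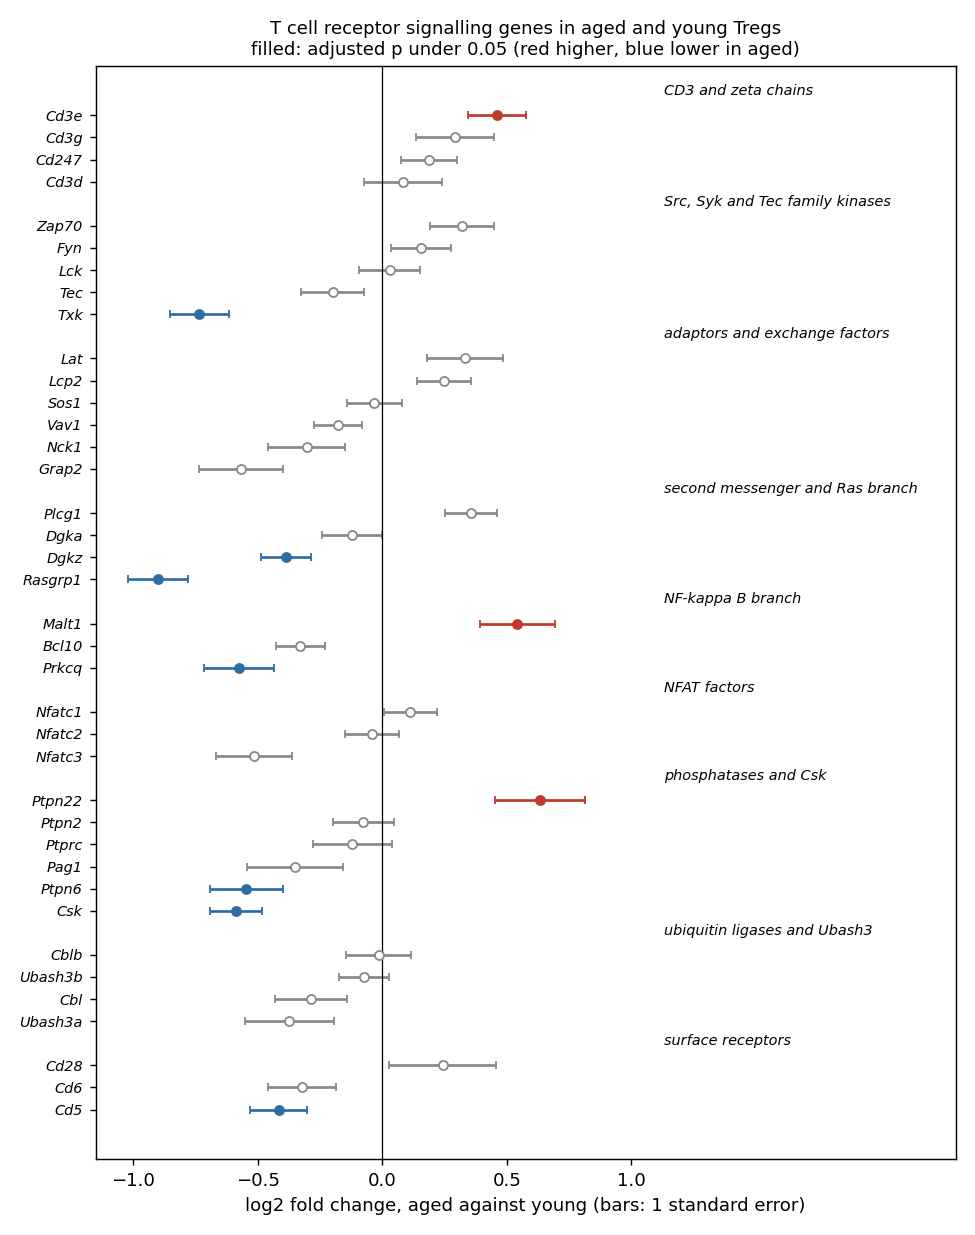
Log2 fold change of each of the 38 members, aged against young, grouped by role, with 1 standard error as the bar. Filled points had an adjusted p under 0.05, and of these 3 lie to the right of 0 (higher in aged Tregs) and 7 to the left, the farthest being Rasgrp1 at -0.90.

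The bases upstream of the start sites of the 3 members called in every such fit are shown, because they are the region from which their transcripts begin and because these genes fell together. Each is the 250 bases before the most upstream annotated RefSeq start, on GRCm38.p6, printed 5′ to 3′ on the strand of the gene, at chr2:117342878-117343127 (minus strand) for Rasgrp1, chr5:72752778-72753027 (minus strand) for Txk and chr9:57653632-57653881 (minus strand) for Csk. Capitals mark matches, on either strand, to letters linked with 5 families of lymphocyte factors, namely ETS (CCGGAA), RUNX (TGTGGT), NFAT (GGAAAA), TCF or LEF (CTTTGA) and E box (CAGGTG). No matches overlapped in these 3 sequences.
Rasgrp1: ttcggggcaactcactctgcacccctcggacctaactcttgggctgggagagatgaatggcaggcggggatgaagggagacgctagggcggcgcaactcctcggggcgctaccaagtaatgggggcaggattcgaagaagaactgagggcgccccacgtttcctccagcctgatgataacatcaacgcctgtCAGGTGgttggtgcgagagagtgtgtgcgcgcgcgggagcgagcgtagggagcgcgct
Txk: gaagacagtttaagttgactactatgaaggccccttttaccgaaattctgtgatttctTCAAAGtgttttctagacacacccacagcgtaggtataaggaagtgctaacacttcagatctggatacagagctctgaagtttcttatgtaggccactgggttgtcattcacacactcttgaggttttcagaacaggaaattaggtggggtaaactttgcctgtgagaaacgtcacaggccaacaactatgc
Csk: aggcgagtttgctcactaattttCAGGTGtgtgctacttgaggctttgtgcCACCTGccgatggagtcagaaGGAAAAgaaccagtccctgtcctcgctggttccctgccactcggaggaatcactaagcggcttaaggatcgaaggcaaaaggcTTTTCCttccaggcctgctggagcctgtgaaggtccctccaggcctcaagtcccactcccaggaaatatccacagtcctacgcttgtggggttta

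In Rasgrp1, 1 E box match began 58 bases before the RefSeq start. GENCODE M21 begins this gene further upstream, at 117343001, so that part of the printed window, with the match, lies inside that gene model. In Txk, 1 TCF or LEF match lay on the opposite strand, with its first printed base 192 bases before the start. Csk held 2 E box and 2 NFAT matches. Promoters of 32 members were in the RefSeq table. The E box letters, which were added to the search after these sequences were seen, stood in 11 of those 32 (34.4%) and in 17.1% of 27025 promoters of the same length. They stood in 5 of the 7 members that fell, with Rasgrp1 and Csk, whose sequences had been seen by then, among the 5, and in 0 of 2 that rose. Of the members that fell, the NFAT letters stood in 1 of 7, the TCF or LEF letters in 1 of 7, and the ETS and RUNX letters in 0. The NFAT letters stood in 8 of 32 (25.0%) against 20.7% of all, the TCF or LEF letters in 8 of 32 against 14.1%, the ETS letters in 3 of 32 against 12.3% and the RUNX letters in 2 of 32 against 14.2%. A match is a string of letters and no measured binding.

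Of the 4 signal-transducing chains of the receptor, 1 was called, Cd3e, which was higher in aged Tregs (16.7% of all genes were called). Cd3e, which pairs with both Cd3d and Cd3g to carry the receptor to the surface, was at 263, 341 and 318 CPM in the aged libraries and at 221, 242, 212 and 218 CPM in the young libraries. Every aged library lay above every young one. The log2 fold change was 0.46 (SE 0.116, adjusted p = 0.0301), and it stayed between 0.38 and 0.56 over the 7 fits without 1 library, although 5 of them no longer called it. Cd3e, Cd3d and Cd3g are neighbours within 1 stretch of chromosome 9, from 44969572 to 45009627 on GRCm38. Its neighbours were not called. Cd3d ran from 251 to 334 CPM in aged and from 247 to 349.5 CPM in young libraries (log2 fold change 0.08, adjusted p = 0.759), and Cd3g from 336 to 430.4 CPM and from 282 to 402 CPM (0.29, adjusted p = 0.232). Young replicate 2 held the highest young value of both genes. The groups of Cd3g overlapped only through it, and those of Cd3d also without it. Cd247, the zeta chain with most of the receptor's phosphorylation motifs, was at 204 ± 5.68 CPM (n = 3, SD) in aged and 179 ± 21.9 CPM (n = 4, SD) in young Tregs (0.19, adjusted p = 0.29). Of its exon length, 60.3% overlaps exons of other genes, where reads would go unassigned if the counting mode is the one inferred from the layout of the files.

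Among the 5 kinases, Txk was the only one called by edgeR (16.7% of all genes were called). DESeq2 called Zap70 as well (27.4% of all genes were called in that fit). Txk, a Tec family kinase of T cells also known as Rlk, was at 43.3, 35.9 and 31.0 CPM in aged and at 61.8, 62.9, 61.5 and 58.1 CPM in young libraries. The 4 young values lay close together and above all aged ones. Its log2 fold change was -0.73 (SE 0.12, adjusted p = 0.00603), with a range of -0.87 to -0.62 over the fits that left out 1 library. Tec, the founding kinase of that family, lies next to Txk on chromosome 5, and its levels overlapped, with 27.4 ± 2.58 CPM (n = 3, SD) in aged and 31.4 ± 3.64 CPM (n = 4, SD) in young Tregs (-0.20, adjusted p = 0.318). Lck, which phosphorylates the chains first, was at 528 ± 47.0 CPM (n = 3, SD) and 518 ± 52.1 CPM (n = 4, SD), with a log2 fold change of 0.03 (SE 0.123, adjusted p = 0.898). Fyn, the second Src family kinase of T cells, had one of 0.16 (adjusted p = 0.415). Zap70 was at 188, 189 and 220.1 CPM in aged and at 156, 188, 135 and 159 CPM in young libraries. Its groups were just apart, with young replicate 2 next to the lowest aged value, and its log2 fold change of 0.32 (SE 0.127) was not called by edgeR (adjusted p = 0.121), while DESeq2 called it (adjusted p = 0.0421), the only call among 20 alternatives.

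None of the 6 adaptors and exchange factors was called by edgeR (16.7% of all genes were called), and limma voom called 1 of them (16.4% of all genes). An unadjusted p under 0.05 was reached by 2 of the 6 and by 4540 of all 13904 genes. The largest change was that of Grap2 (Gads), which holds Lcp2 to Lat. It stood at 154, 124 and 97.7 CPM in aged and at 214, 161, 175 and 192 CPM in young libraries, without overlap. Its log2 fold change of -0.57 (SE 0.167) had an adjusted p of 0.0509, in a range of 0.00304 to 0.15 over 20 alternatives, of which 8 called it. The scaffolds it connects were called in none of these alternatives. Lcp2 was at 351 ± 9.58 CPM (n = 3, SD) and 295 ± 28.1 CPM (n = 4, SD), a log2 fold change of 0.25 (adjusted p = 0.147), and Lat had one of 0.33 (adjusted p = 0.169). Vav1, an exchange factor for Rac, was at -0.18 (adjusted p = 0.239), Nck1, a link to actin, at -0.30 (adjusted p = 0.217), and Sos1, an exchange factor for Ras, at -0.03 (adjusted p = 0.873).

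The diacylglycerol step held the largest change of all members. Rasgrp1, the exchange factor that diacylglycerol recruits to activate Ras, was at 189, 150.1 and 152 CPM in aged and at 329.9, 315, 294 and 281 CPM in young libraries. The highest aged library stayed well below the lowest young one. The log2 fold change was -0.90 (SE 0.121, adjusted p = 0.00263), or 0.537 of the young level, and Rasgrp1 was the only member called in all 20 alternatives, with log2 fold changes from -1.02 to -0.84. Dgkz, a diacylglycerol kinase that removes this messenger, was also lower, at 396, 372 and 357 CPM in aged against 476, 515, 469 and 502 CPM in young libraries. The groups lay apart, with a log2 fold change of -0.39 (SE 0.101, adjusted p = 0.034) that was called in 1 of the 7 fits leaving out a library. Dgka, the other diacylglycerol kinase of T cells on the list, was at 612, 606 and 488 CPM in aged and at 638, 633, 589.9 and 616 CPM in young libraries, with overlap and a log2 fold change of -0.12 (adjusted p = 0.524). Plcg1, which produces the messenger, was at 268, 304 and 293 CPM in aged and at 234, 248, 208 and 212 CPM in young libraries. These groups did not overlap, and the log2 fold change of 0.36 (SE 0.105) had an adjusted p of 0.0512. It was called in 8 of 20 alternatives, with adjusted p-values from 0.00269 to 0.229.

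In the NF-kappa B branch, 2 of 3 members were called by edgeR (against 16.7% of all genes), in opposite directions, and the groups of all 3 did not overlap, as in 29.9% of all genes. Prkcq, the protein kinase C theta that diacylglycerol brings to the synapse, was at 209, 183 and 144 CPM in aged and at 282, 283, 247 and 250.4 CPM in young libraries. Its log2 fold change was -0.57 (SE 0.14, adjusted p = 0.0274). Malt1, the protease of the complex that Prkcq triggers, was at 204, 147 and 221 CPM in aged and at 140.2, 139, 113 and 132 CPM in young libraries. Aged replicate 2 came close to the young range, and the log2 fold change was 0.54 (SE 0.151, adjusted p = 0.0423). Bcl10, the linker of that complex, was at 51.9 ± 6.14 CPM (n = 3, SD) and 65.1 ± 1.94 CPM (n = 4, SD), a log2 fold change of -0.33 (SE 0.0985) that edgeR did not call (adjusted p = 0.0537). It was called in 5 of 20 alternatives, DESeq2 among them, with adjusted p-values from 0.007 to 0.201. Prkcq and Malt1 were each called in 1 of the 7 fits leaving out a library, with adjusted p-values up to 0.0754 and 0.146.

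None of the 3 NFAT factors, which calcineurin sends to the nucleus, was called by edgeR (16.7% of all genes were called). Nfatc3 alone of the 3 had an unadjusted p under 0.05, as did 4540 of all 13904 genes. Nfatc3 was at 253, 162 and 186 CPM in aged and at 292, 276, 294 and 283 CPM in young libraries. The young values were tight and the aged ones spread below them, and the log2 fold change of -0.51 (SE 0.152) had an adjusted p of 0.051. DESeq2 and limma voom called it, and so did 8 of 20 alternatives in all, with adjusted p-values from 0.00333 to 0.199. Nfatc1 was at 238 ± 27.8 CPM (n = 3, SD) and 220.4 ± 8.94 CPM (n = 4, SD), and Nfatc2 at 73.6 ± 10.1 CPM (n = 3, SD) and 75.8 ± 4.08 CPM (n = 4, SD). Their log2 fold changes were 0.11 (adjusted p = 0.508) and -0.04 (adjusted p = 0.828).

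The enzymes that restrain Lck moved in both directions. Csk, which phosphorylates the inhibitory tyrosine of Src family kinases, was at 296, 302 and 267 CPM in aged and at 430.5, 444, 399 and 457 CPM in young libraries. All young libraries lay above all aged ones, and the log2 fold change was -0.59 (SE 0.104, adjusted p = 0.00836), with a range of -0.62 to -0.53 over the 7 fits without 1 library. Ptpn22, a phosphatase that binds Csk and acts on active Lck and Zap70, was at 294, 209 and 279 CPM in aged and at 159, 219, 141 and 153 CPM in young libraries. Young replicate 2 stood above aged replicate 2, so the groups overlapped. The log2 fold change was 0.63 (SE 0.18, adjusted p = 0.0451). It was 0.79 without young replicate 2, and 2 of the 7 fits leaving out a library called it. Pag1, the membrane anchor of Csk, was at 81.6 ± 24.6 CPM (n = 3, SD) and 104 ± 10.1 CPM (n = 4, SD), a log2 fold change of -0.35 (adjusted p = 0.244). Over the 7 fits without 1 library its change ranged from -0.59 to -0.15. Only the fit without aged replicate 1 called Pag1 (adjusted p = 0.0342).

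Ptpn6 (SHP-1), a phosphatase that B cells and myeloid cells also express, was at 172, 230.3 and 220.3 CPM in aged and at 284, 299, 270.1 and 359 CPM in young libraries. The groups did not overlap, and its log2 fold change was -0.55 (SE 0.146, adjusted p = 0.0373). The B cell marker sums of the same libraries were 1130, 1601 and 2095 CPM in aged and 2099.5, 1675, 1888 and 2561 CPM in young Tregs. Both were lowest in aged replicate 1 and highest in young replicate 4, while aged replicate 3 had a higher B cell sum and a lower Ptpn6 level than young replicates 2 and 3. With the B cell marker level in the model, a fit added after the data were seen, the log2 fold change of Ptpn6 was -0.38 and was not called (adjusted p = 0.112). In that fit Malt1 (0.57, adjusted p = 0.0787), Dgkz (-0.43, adjusted p = 0.0537) and Ptpn22 (0.52, adjusted p = 0.122) were not called either, the first 2 with changes no smaller than in the reported fit. Rasgrp1 (-1.02), Txk (-0.91), Csk (-0.61), Cd3e, Prkcq and Cd5 remained called, and Nfatc3, Cd6 and Ubash3a were called in addition. The part of B cells in the level of Ptpn6 was not tested further. Ptprc (CD45), the abundant phosphatase that opens Lck for activation, was at 1625 ± 304 CPM (n = 3, SD) and 1766 ± 126 CPM (n = 4, SD), a log2 fold change of -0.12 (adjusted p = 0.644). Ptpn2, a further phosphatase of Lck and of cytokine signalling, had one of -0.08 (adjusted p = 0.718).

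**Figure D2:**
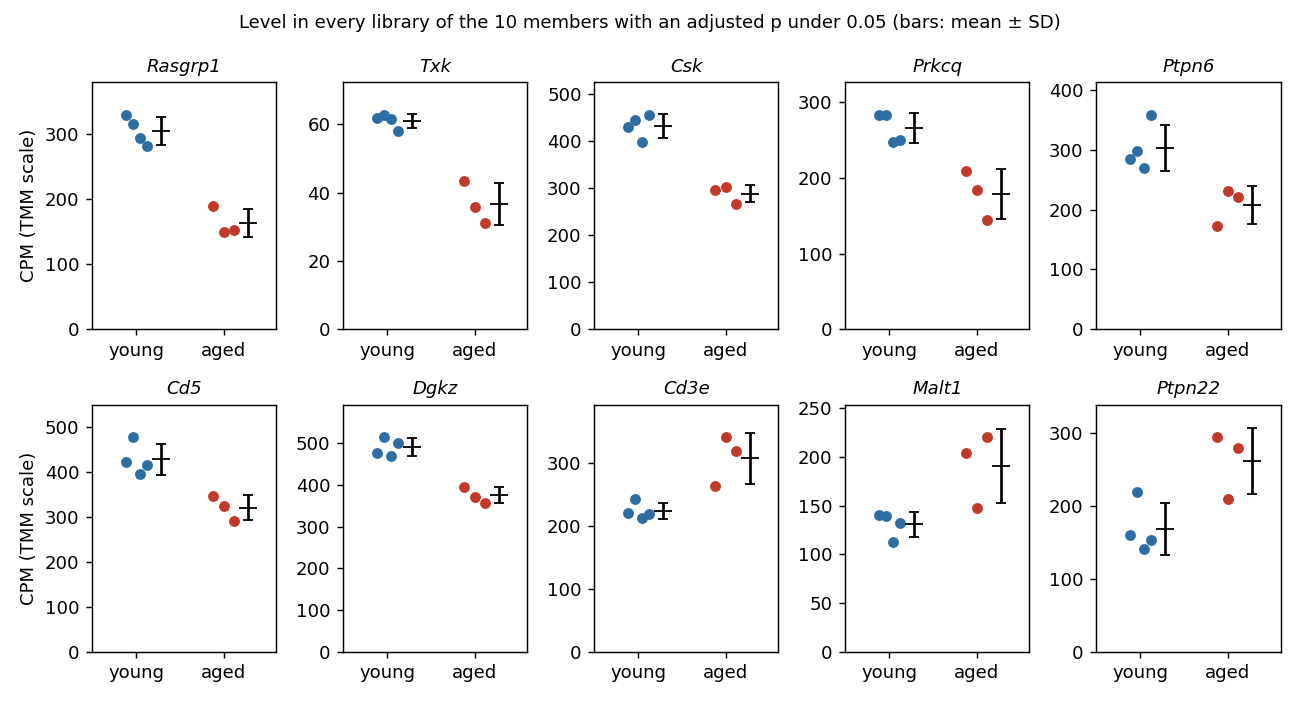
Level in CPM, from 0, of the 10 called members in each young (blue, n = 4) and aged (red, n = 3) library, with mean ± SD beside the points. The groups lie apart in 9 panels, and in the panel of Ptpn22 the young library at 219 CPM stands above the aged library at 209 CPM.

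The 4 ubiquitin ligases and Ubash3 genes, which end signalling by marking or dephosphorylating receptor-proximal kinases, gave no call with edgeR, limma voom or DESeq2. Those fits called 16.7%, 16.4% and 27.4% of all genes. With edgeR, an unadjusted p under 0.05 was reached by 4540 of all 13904 genes and by none of these 4. Their log2 fold changes were -0.01 for Cblb (adjusted p = 0.955), -0.07 for Ubash3b (adjusted p = 0.66), -0.28 for Cbl (adjusted p = 0.213) and -0.37 for Ubash3a (adjusted p = 0.191), with SE of 0.102 to 0.18. Cbl was called without aged replicate 1 (adjusted p = 0.0371), and Ubash3a with the B cell marker level in the model (adjusted p = 0.0269). Among the surface receptors, Cd5, an inhibitory scavenger-type receptor whose level on T cells follows the strength of receptor signals, was at 347, 326 and 291 CPM in aged and at 422, 479, 396 and 417 CPM in young libraries. The groups did not overlap, with a log2 fold change of -0.42 (SE 0.116, adjusted p = 0.0422) that was called in 1 of the 7 fits leaving out a library. Cd6, its relative and neighbour on chromosome 19, was at 317 ± 56.2 CPM (n = 3, SD) and 396 ± 26.7 CPM (n = 4, SD) and was not called by edgeR (-0.32, adjusted p = 0.142). DESeq2 called it, as did the fits without aged replicate 1 and with the B cell marker level, 3 of 20 alternatives in all, with adjusted p-values from 0.0217 to 0.384. The costimulatory receptor Cd28 ran from 172 to 253 CPM in aged and from 136 to 246 CPM in young libraries, with the highest young value again in young replicate 2 (0.24, adjusted p = 0.475).

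Young replicate 2 had the highest young value for 23 of the 38 members and young replicate 3 the lowest for 20. Young replicate 2 also had the highest summed Treg markers of all 7 libraries. With the Treg marker level in the model, added after the data were seen, 4 members (10.5%) were called, all lower in aged Tregs. That fit called 9.23% of all 13904 genes in either direction, and 554 genes as lower. The 4 members were Rasgrp1 (-0.99, adjusted p = 0.00834), Txk (-0.79, adjusted p = 0.0178), Csk (-0.59, adjusted p = 0.0322) and Prkcq (-0.66, adjusted p = 0.0436). The 3 rises in that fit were 0.43 for Cd3e (adjusted p = 0.0982), 0.45 for Malt1 (adjusted p = 0.158) and 0.41 for Ptpn22 (adjusted p = 0.139). The other falls were -0.42 for Dgkz (adjusted p = 0.0754), -0.45 for Ptpn6 (adjusted p = 0.119) and -0.50 for Cd5 (adjusted p = 0.0523).

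To compare members with each other, CPM was divided by exon length in kilobases. Over all libraries Lck was the most abundant by this measure, with 180.4 CPM per kb in aged and 177 in young Tregs, followed by Cd3d (163 and 153) and then by Dgka (119 in aged) and Lat (137 and 108), of which Lat was the higher in aged and Dgka in young Tregs. Lck and Cd3d differed by less than the SD of Cd3d in either group. Cd3g and Csk followed in the mean over all libraries, and Csk went from 116 CPM per kb in young to 77.1 in aged Tregs. The order ended with Nck1, Txk and Sos1, where Txk was at 5.57 in young and 3.35 in aged Tregs and Sos1 at 3.46 and 3.38. Long exons of rare isoforms enter this length, so that levels of genes such as Txk may be understated. The level of Cd247, 38.2 and 33.6 CPM per kb, may lack reads on shared exons.

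**Figure D3:**
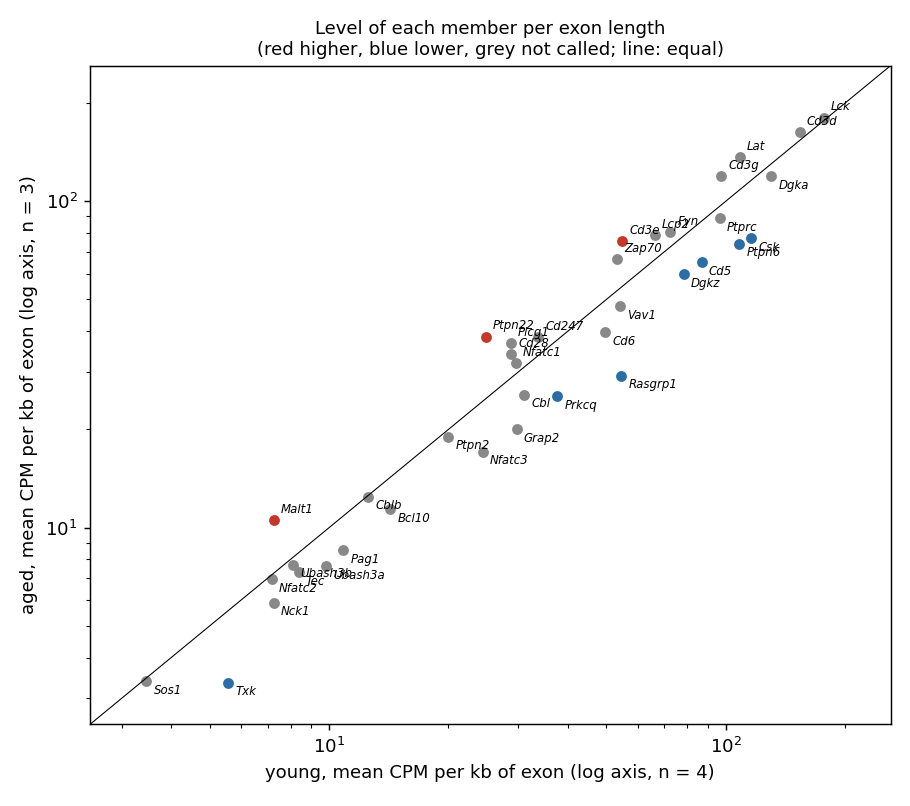
Mean level of each member in CPM per kb of exon on log axes, young (n = 4) against aged (n = 3), with the line of equal levels. Called members are red (higher) or blue (lower), and the points span Sos1 at 3.46 to Lck at 177 CPM per kb in young Tregs.

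Ratios of counts of 2 genes within a library do not depend on how libraries are scaled. For 6 pairs, picked after the levels were seen, the ratio is given as a description, with no test, since that choice largely fixed the direction and the separation. Counts of Rasgrp1 were 0.477, 0.404 and 0.426 of those of Dgkz in aged and 0.692, 0.612, 0.627 and 0.561 of them in young libraries. The aged ratios were all lower, although both genes fell, with a mean difference of -0.52 on the log2 scale. Ptpn22 relative to Csk went from 0.334 to 0.494 in young to 0.693 to 1.04 in aged libraries, a difference of 1.23 on the log2 scale. Malt1 relative to Prkcq differed by 1.11, Cd3e relative to Cd3d by 0.37 and Nfatc3 relative to Nfatc1 by -0.65 on that scale. In these 5 pairs the groups did not overlap. The ratio of Txk to Tec overlapped, with a difference of -0.55 on the log2 scale.

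**Figure D4:**
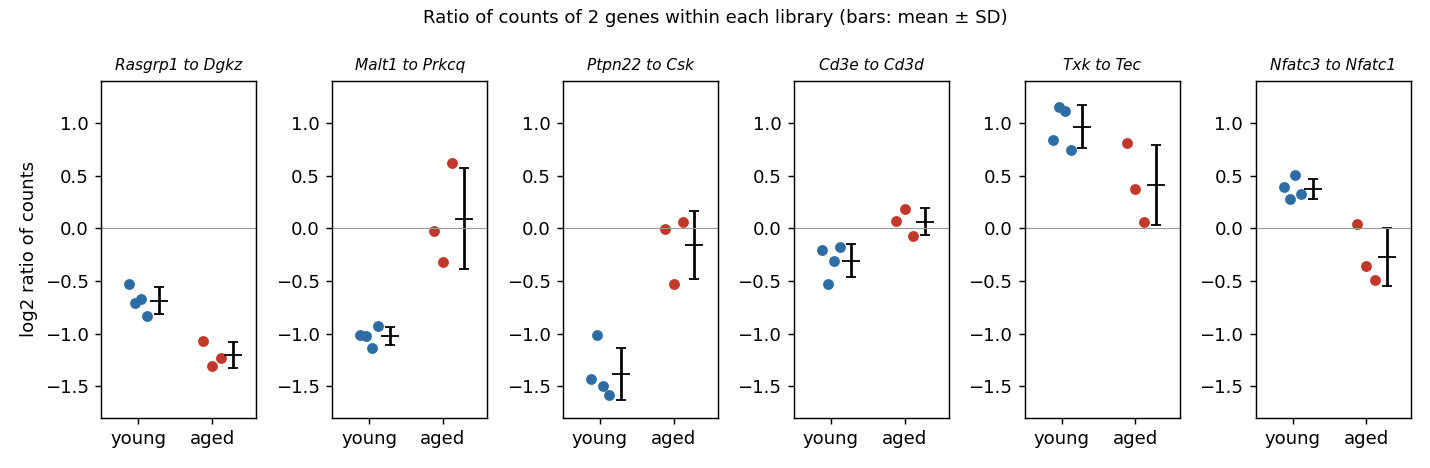
Log2 ratio of the counts of 2 genes within each young (blue, n = 4) and aged (red, n = 3) library, with mean ± SD beside the points, for 6 pairs on 1 common axis. Ptpn22 to Csk moves most, from a mean of -1.38 in young to -0.16 in aged Tregs, and only Txk to Tec has groups that overlap.

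A further 98 genes of the pathway, listed for their known place in it, were read in the same fit. Of these, 24 were called (24.5%, against 16.7% of all genes), 16 lower and 8 higher in aged Tregs, with a median log2 fold change of -0.15. The list was made with earlier results of these data known, so its share of calls is a description and no test. The number called was 13 without aged replicate 3, 14 without young replicate 3 and 12 without young replicate 1 or 4, fits in which 8.9% to 9.58% of all genes were called. The 5 called falls with the smallest adjusted p were those of Themis, Orai2, Def6, Mapk14 and Dusp2. Themis, a regulator of receptor signals in thymocytes that binds Ptpn6, went from 42.9 ± 1.67 CPM (n = 4, SD) in young to 18.0 ± 4.47 CPM (n = 3, SD) in aged Tregs (-1.25, adjusted p = 0.00251). Orai2, a subunit of store-operated calcium channels, went from 121 ± 4.6 CPM (n = 4, SD) to 80.5 ± 1.22 CPM (n = 3, SD) (-0.59, adjusted p = 0.00263). Dusp2, a MAP kinase phosphatase induced by activation, went from 259.9 ± 63.6 CPM (n = 4, SD) to 101 ± 19.4 CPM (n = 3, SD) (-1.37, adjusted p = 0.00692). Def6, an exchange factor, had a log2 fold change of -0.67 (adjusted p = 0.00337) and Mapk14, the p38 alpha kinase, of -0.50 (adjusted p = 0.00559).

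The 5 called rises with the smallest adjusted p were those of Lag3, Rnf128, Tigit, Tespa1 and Dok1. Lag3, an inhibitory receptor that binds MHC class II, was at 124, 98.2 and 224 CPM in aged and at 21.1, 32.1, 22.7 and 25.0 CPM in young libraries. The aged values were spread and all above the young ones (2.56, adjusted p = 0.00125). Tigit, an inhibitory receptor for nectin-like ligands, went from 54.5 ± 13.7 CPM (n = 4, SD) in young to 162 ± 22.5 CPM (n = 3, SD) in aged Tregs (1.58, adjusted p = 0.00162). Rnf128 (GRAIL), a ubiquitin ligase linked to T cell anergy, went from 0.721 ± 0.341 CPM (n = 4, SD) to 5.49 ± 0.433 CPM (n = 3, SD), with as few as 5 reads in a library (2.90, adjusted p = 0.00157). Tespa1, a partner of Plcg1 in thymocytes, had a log2 fold change of 0.69 (adjusted p = 0.00632), as did Dok1, an inhibitory adaptor (adjusted p = 0.0157), which was not called without aged replicate 3 or young replicate 1. The coreceptor Cd4, used for the isolation, was at 434 to 446 CPM in aged and 493 to 633 CPM in young libraries and was not called (-0.30, adjusted p = 0.117).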

How the data were processed

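The authors deposited raw read counts per Ensembl gene for each library, made per the labels from SMART-Seq v4 cDNA without molecular identifiers. File layout and names are those of HTSeq-count in union mode without strand, under which genes that overlap on either strand would lose reads. The build is mm10 by the submitters' processing notes, and the aligner is not given in the sources used here. Reads on no gene or on several (13.1% to 20.9%) were left out. A deposited table with signal values, each a count divided by 1 size factor per library, was used for gene symbols only. Its columns of the authors' own comparison (fold changes and p-values) were not used. Coordinates and exon lengths are from GENCODE M21 (GRCm38), promoters from RefSeq (GRCm38.p6).

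Aged and young Tregs were compared in R 4.3.3 with edgeR 4.0.16 (quasi-likelihood, TMM, filterByExpr, no covariate). Standard errors were derived by dividing each absolute change by the square root of its F statistic. Nothing says whether replicates share an animal pool, so p-values measure the spread between these libraries. Alternatives used DESeq2 1.42.0, limma voom 3.58.1, other scalings and filters, splines (5 degrees of freedom) on GC content and length for 13862 genes, the replicate number as a block, and each library left out. Scripts were tested on simulated counts. Named are all members, Cd4, Foxp3 and the 5 called genes of the wider pathway with the smallest adjusted p in each direction, and other names are marked. Il2ra was also named for the check of the cells and is given in the closing section, with the remaining marker lists. The members and lists were chosen with earlier results of these data known.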

Additional observations from a re-analysis of the deposited data

Results flagged for a closer look

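Among the 38 members, 3 had a young library far from the other 3 by Dixon's criterion (a gap over 0.829 of the group's range), and all 3 were high in young replicate 2. Cd3d was at 349.5 CPM there and at 247 to 264 CPM in the other young libraries (0.835 of the range). Cd3g was at 401.8 CPM against 282 to 302 CPM (0.838). Ptpn2 was at 75.6 CPM against 57.0 to 59.3 CPM (0.875). Chance flags about 1 in 20 groups. Young replicate 2 also held the highest Treg (3796 CPM) and plasma cell (2124 CPM, against 416 to 607 CPM) marker sums of the young libraries. Its sum for all T cells was the highest too (4040 CPM, against 3072 to 3379 CPM). Its erythroid (12386 CPM), neutrophil (287 CPM) and B cell (1675 CPM) sums were the lowest of the young libraries. The part of these cells in the flagged values was not tested. Without young replicate 2, the log2 fold changes were 0.21 for Cd3d, 0.42 for Cd3g and 0.03 for Ptpn2, and none was called.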

How the results depend on the processing

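The number of called members was 10 in the reported fit and 9 to 14 with limma voom, RLE scaling, no filter, a filter of 10 counts in every library, GC content and length trends removed, mitochondrial, immunoglobulin and haemoglobin genes left out, DESeq2 on all genes with a count, or the B cell marker level as a covariate, fits that called between 8.72% (no filter, 25469 genes tested) and 18.2% (GC content and length) of all genes. The called genes were not the same in all of these fits. With no filter, Cd3e, Dgkz and Cd5 were not called, and Nfatc3 and Grap2 were called in addition. With GC content and length trends removed, Dgkz and Cd5 were not called, and Plcg1 and Nfatc3 were called in addition. DESeq2 on the filtered genes called 16 members, 41 of the other pathway genes and 3804 of all genes. A least absolute log2 fold change of 1 left 0 members (0 also at an unadjusted p under 0.05), 5 other pathway genes and 1016 of all genes. With the Treg marker level as a covariate, 4 members and 1283 of all genes were called. Leaving out each library gave 3 to 13 members, 12 to 29 other pathway genes and 1237 to 3058 of all genes.

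The replicate numbers are shared by label only. Deviations from the group means of same-numbered libraries correlated at -0.09, -0.29 and -0.14, and no aged library correlated best with its own number. With the replicate number as a block, in which young replicate 4 has no partner and adds nothing to the contrast, 1 member (Rasgrp1) was called, with 4 other pathway genes and 292 of all genes. With GC content and length trends removed as well, the block gave 1, 5 and 278.

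Direction turned in 8 members, none of them called in either fit. With GC content and length trends removed, Nfatc2 was at 0.12, Sos1 at 0.0603, Cblb at 0.11 and Ubash3b at 0.032. With these trends removed and the block, Cd3d was at -0.0276, Lck at -0.0021, Nfatc2 at 0.0934, Sos1 at 0.0241, Cblb at 0.0876 and Ubash3b at 0.0146. Lck was at -0.0475 scaled by library size only. With the Treg marker covariate, Cd3d was at -0.0531, Lck at -0.025 and Cd28 at -0.0679, and with the B cell marker covariate Cd28 was at -0.0030. Leaving out each library gave ranges of -0.0127 to 0.21 for Cd3d, -0.0459 to 0.10 for Lck, -0.16 to 0.0341 for Nfatc2, -0.0875 to 0.0236 for Sos1, -0.11 to 0.11 for Cblb and -0.12 to 0.0297 for Ptpn2. The cause of these changes was not tested. The members had at least 249 reads in every library, and the effect of depth or of the number of libraries on the calls was not tested.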

Other observations

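Beyond the genes named by rule, calls in the wider pathway lay in most branches, and the genes in this paragraph were chosen after their values were seen. In the adaptor and cytoskeleton group, 4 of 17 genes were called and all 4 were lower in aged Tregs by edgeR (over all genes, 16.7% were called, 6.94% lower and 9.8% higher). Nck2, the paralog of the member Nck1, went from 34.8 ± 5.17 CPM (n = 4, SD) in young to 20.8 ± 2.37 CPM (n = 3, SD) in aged Tregs (log2 fold change -0.74, adjusted p = 0.0137), and Was, the actin regulator of the Wiskott-Aldrich syndrome, had a log2 fold change of -0.56 (adjusted p = 0.0154), not called without aged replicate 3. In the calcium and calcineurin group, Orai2 was the 1 called gene of 18. Among 6 costimulatory and inhibitory receptors, 3 rose, with Icos, a costimulatory receptor of activated T cells, at 0.92 (adjusted p = 0.0221) beside Lag3 and Tigit. Icos was not called without aged replicate 3 or young replicate 1, 3 or 4 (adjusted p up to 0.0768), while Lag3 and Tigit were called in all 7 such fits.

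Il2ra, which encodes CD25, was at 327 to 481 CPM in aged and 471 to 684 CPM in young libraries (log2 fold change -0.61, adjusted p = 0.0588). Summed marker levels of the remaining lists, in aged and then in young libraries, were 3480 to 3602 and 3072 to 4040 CPM for all T cells, 878 to 1428 and 416 to 2124 CPM for plasma cells, 409 to 559 and 525 to 616 CPM for monocytes or macrophages, and 45.4 to 66.7 and 63.1 to 82.7 CPM for dendritic cells. They were 79.9 to 107 and 92.7 to 144.5 CPM for NK cells, 52.8 to 104 and 59.5 to 107.5 CPM for CD8 T cells, and 21.1 to 41.5 and 8.62 to 18.0 CPM for platelets. Erythroid markers ran from 12721 to 156980 CPM in aged and from 12386 to 116200 CPM in young libraries. Cd209a was the only marker tested at 0 in a library. The part of these cells in the members' values was not tested.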
